A study of Mus musculus with 3 samples.

Results

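The death receptor gene Fas and the BCL2 family genes Bcl2, Bcl2l1, Mcl1, Bak1, Bad, Bbc3 and Bcl2l11 were followed through every Affymetrix probe set whose only annotated symbol was one of them. They are 8 of 9 listed genes and hold 26 probe sets, out of 18194 genes with a named probe set. The remaining listed gene, Bax, was not analysed here. Gene expression was measured on 3 arrays, 1 for each kind of cell, in the mouse T-lymphoma line WR19L, which comes from the BALB/c strain. The first array held flippase-deficient WR19L cells (DKO) that stably expressed human ATP11A with the Q84E mutation, the second held DKO cells that stably expressed wild-type human ATP11A, and the third held parental WR19L cells. ATP11A is a flippase, a P4-ATPase that carries phosphatidylserine inward across the plasma membrane. All cells were untreated, and the labels do not say whether a line was 1 clone. The untransduced DKO line was not analysed here, and the knockout, the transgene and the derivation of the line cannot be told apart in a ratio over parental cells. The parental array carries the additional label W3, a name used in published work for WR19L cells that carry a mouse Fas transgene. The labels name no such transgene, and its signal could not be told apart from that of the endogenous gene.

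Fas is the cell surface receptor through which Fas ligand kills lymphocytes by way of FADD and caspase 8. The BCL2 family controls the other entry to apoptosis, at the mitochondrial outer membrane. Its survival members BCL2, BCL-XL (from Bcl2l1) and MCL1 hold back the pore formers BAX and BAK, and the BH3-only proteins BIM (from Bcl2l11), PUMA (from Bbc3) and BAD oppose the survival members. In developing and mature T cells BCL2 and MCL1 are needed for survival, and BIM and PUMA for the removal of superfluous cells. Caspases activated downstream of either entry cleave flippases of the ATP11 group and activate the scramblase XKR8, after which phosphatidylserine is exposed as a signal for engulfment.

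Each value below is a MAS5 signal, a linear brightness of a probe set, and a ratio is the difference of log2 signals after levels under the median of their array had been raised to it. That floor was a signal of 55.5 for Q84E, 50.5 for wild-type ATP11A and 50.3 for parental cells, and 24 of the 26 probe sets lay above it on all 3 arrays. With 1 array per group there was no spread between replicates, no test and no p-value. In its place stands the probe set error, the SD of the disagreement in log2 ratio within pairs of probe sets for 1 gene, scaled to a single probe set. The pairs were neighbours in brightness, less than 1 apart in mean log2 signal and above the floor on all arrays. Disagreement between probe sets of unlike brightness is thus not covered. The error was 0.33 to 0.36 in the 50th to 75th percentile of the array, 0.19 in the 75th to 90th and 0.097 to 0.10 above the 90th percentile. It also leaves out differences between cultures. Fewer cells of a type and less RNA per cell cannot be told apart in such bulk RNA. T cell markers fitted the label in part. Of 9 markers with a named probe set, 7 were above the floor on all arrays, and Cd3e and Cd5 were below it on all. The summed signal of the 9 was 17671 in Q84E, 13358 in wild-type ATP11A and 20419 in parental cells. Single markers moved apart, with Trat1 at 213 in Q84E, 575 in wild-type ATP11A and 1451 in parental cells and its other probe set in the same order. Cd28 had 227, 115 and 112 by its brightest probe set, 2.03-fold higher in Q84E than in parental cells, against a log2 ratio of 0.20 by its other one. Of the named B cell, myeloid, erythroid and fibroblast markers, 1 of 4, 1 of 6, 2 of 3 and 1 of 5 were above the floor on all arrays, and each of these lists summed to between 138 and 289 on every array. The part of the T cell marker shift in the values below was not tested.

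None of the 8 genes differed 2-fold by its brightest probe set, the one with the highest mean log2 signal, and 0 of the 24 probe sets did. For Q84E over wild-type ATP11A, 1.35% of the 11596 genes compared and 1.43% of 21345 probe sets passed 2-fold. The corresponding shares were 1.45% and 1.52% for wild-type ATP11A over parental. They were 2.42% and 2.46% for Q84E over parental. At a limit of 1.5-fold, 1 gene passed for Q84E over wild-type ATP11A (Bad, lower), 1 for wild-type ATP11A over parental (Bad, higher) and 2 (Fas and Bbc3, higher) for Q84E over parental. The shares of all genes past that limit in either direction were 7.75%, 7.07% and 10.3% for the 3 comparisons in that order. In the direction of the member counted, they were 1.97% lower, 3.51% higher and 7.36% higher. Over single probe sets, 4 of 24 passed 1.5-fold for Q84E over wild-type ATP11A (8.53% of all probe sets), 1 of 24 for wild-type ATP11A over parental (7.73%) and 6 of 24 (11.4%) for Q84E over parental. Those 6 were 2 of Bcl2 and 1 each of Bcl2l1, Bbc3 and Fas, all higher, and 1 of Bak1, lower. The median log2 ratio of the 8 genes was 0.10, 0.23 and 0.033, beside 0.046, 0.0057 and 0.068 over all genes compared and 0.030, 0.011 and 0.048 over those above the floor on both arrays of a comparison. Members rest on unequal numbers of probe sets, and the 3 comparisons share arrays and are not independent of each other.

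**Figure D1:**
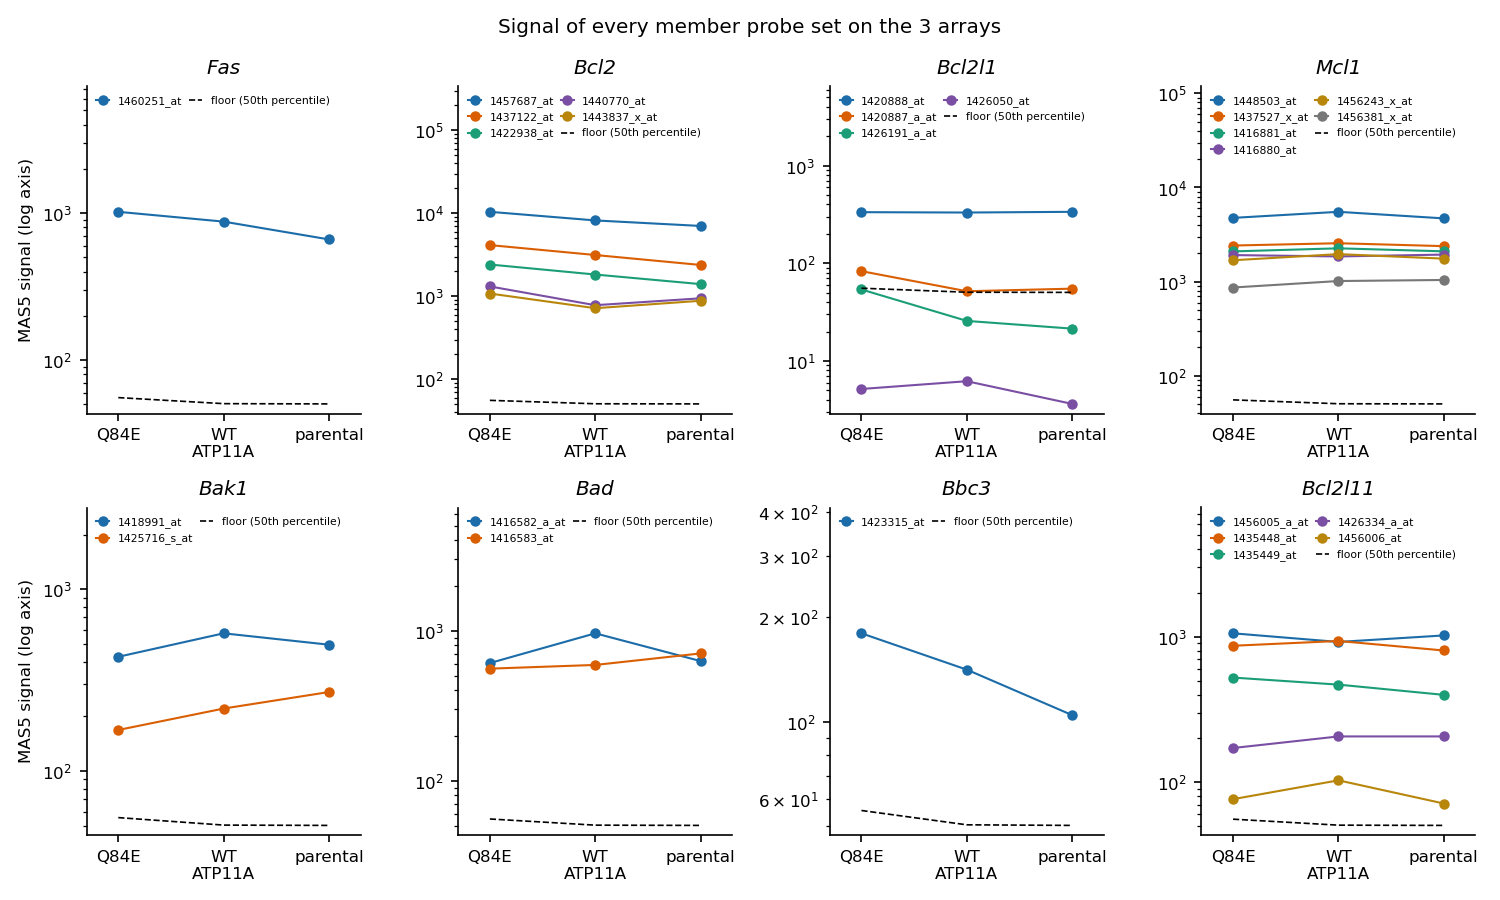
MAS5 signal (log axis) of each probe set of the 8 genes on the Q84E, wild-type ATP11A and parental arrays, with 1 panel per gene, 1 line per probe set and the floor as a dashed line. All 5 Bcl2 lines are highest on the Q84E array, and the 6 Mcl1 lines are nearly level.

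Fas was represented by 1 probe set, 1460251_at. Its signal was 1019 in Q84E, 874 in wild-type ATP11A and 661 in parental cells, so both DKO lines were above the parental line. The ratio of Q84E over parental was 0.62 on the log2 scale, 1.54-fold and 3.24 times the probe set error. That of wild-type ATP11A over parental was 0.40, 1.32-fold and 2.16 times the error, and that of Q84E over wild-type ATP11A was 0.22, 1.18 times the error, so Q84E and wild-type ATP11A cells did not differ beyond 2 errors. Among the 3836 genes of the same brightness, 136 (3.55%) had a ratio of Q84E over parental at least as high and 151 (3.94%) one of wild-type ATP11A over parental. When the arrays were scaled to a common median signal in place of the deposited scaling, the 3 values were 0.084 for Q84E over wild-type ATP11A, 0.40 for wild-type ATP11A over parental and, below 1.5-fold, 0.48 for Q84E over parental. Over the 2 ratios to parental cells, the genes nearest to Fas among 6370 genes at or above the 75th percentile on all arrays were Pnpla8, Kifc1 and Ccne1, at distances of 0.011, 0.012 and 0.022 on the log2 scale, and 18 genes lay within 0.1. These distances lie within the probe set error of 0.19 for either ratio, so which genes come nearest is uncertain. A likeness over 3 arrays describes these arrays only.

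Promoter letters were set beside these values because of Foxo3, a transcription factor gene described with the other regulators. It stood apart on the Q84E array by 1 of its 2 measured probe sets, a less specific one. FOXO3 is also known to activate Bbc3 and Bcl2l11. In the 250 bases before each RefSeq start, with 15 windows matched by symbol for the 9 listed genes in build GRCm38.p6, the core of the motif bound by FOXO transcription factors (GTAAACA on either strand) was found in 2 of the 15, 1 each of Bbc3 and Bcl2l11. It occurs in 3.17% of all 32851 such windows. The short core of the cAMP response element (TGACGT on either strand) was found in 1 of the 15, that of Bcl2, against 6.47% of all windows. The core of the GC box (GGGCGG on either strand) was in 10 of the 15, from 7 genes, against 32.7%. G and C made up 47.6% to 81.6% of the letters in the 15 windows, and the GC box share was not adjusted for this. In the windows printed, the capitals overlap no GC box core. The motifs were chosen with the values of the genes known, and the FOXO core also because Bbc3 and Bcl2l11 are known targets. Its matches there are therefore no independent finding, and a role of FOXO3 in these values was not tested. Windows of 1 gene can overlap, as 2 of the 3 of Bbc3 do, so the 15 are not independent. A match is a description of letters and not of a bound site. The windows of 4 members are given 5′ to 3′ on the strand of the gene with the FOXO core and the cAMP core in capitals (in Bbc3 the FOXO core lies on the other strand and reads TGTTTAC), and the window of Fas, which has neither, is shown for comparison with Bcl2 because both were highest on the Q84E array. Bbc3 (chr7:16310011-16310260, plus strand, the middle one of 3 starts, motif beginning 167 bases before it), Bcl2l11 (chr2:128125788-128126037, plus strand, the first of 2 starts, motif beginning 227 bases before it), Bcl2 (chr1:106714291-106714540, minus strand, motif beginning 107 bases before the start) and Fas (chr19:34290409-34290658, plus strand) read as follows.
Bbc3: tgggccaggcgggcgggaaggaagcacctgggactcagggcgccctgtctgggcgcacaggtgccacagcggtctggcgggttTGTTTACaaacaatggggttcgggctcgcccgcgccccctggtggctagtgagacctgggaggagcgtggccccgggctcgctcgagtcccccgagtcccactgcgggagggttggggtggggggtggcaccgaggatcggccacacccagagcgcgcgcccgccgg
Bcl2l11: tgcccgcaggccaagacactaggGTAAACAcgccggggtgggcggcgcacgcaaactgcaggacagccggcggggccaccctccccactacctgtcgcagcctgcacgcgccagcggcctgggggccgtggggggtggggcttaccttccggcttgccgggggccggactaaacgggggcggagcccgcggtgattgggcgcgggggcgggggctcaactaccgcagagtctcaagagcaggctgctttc
Bcl2: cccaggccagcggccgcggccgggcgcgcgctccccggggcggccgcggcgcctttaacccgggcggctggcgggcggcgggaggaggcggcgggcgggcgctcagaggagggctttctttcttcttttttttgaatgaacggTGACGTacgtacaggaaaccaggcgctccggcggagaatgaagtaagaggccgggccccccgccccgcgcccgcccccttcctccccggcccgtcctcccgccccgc
Fas: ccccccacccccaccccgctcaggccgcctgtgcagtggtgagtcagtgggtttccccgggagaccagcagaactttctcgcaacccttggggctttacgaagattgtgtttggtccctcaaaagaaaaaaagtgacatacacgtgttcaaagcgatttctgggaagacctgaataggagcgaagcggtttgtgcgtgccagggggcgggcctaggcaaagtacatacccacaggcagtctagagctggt

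The clearest pattern among the survival genes belonged to Bcl2, whose product guards the mitochondrial outer membrane. Its brightest probe set, 1457687_at, had a signal of 10409 in Q84E, 8197 in wild-type ATP11A and 7031 in parental cells. Probe set 1437122_at gave 4133, 3139 and 2381 on the arrays in that order, and 1422938_at gave 2411, 1826 and 1399. All 3 of these were highest with Q84E, intermediate with wild-type ATP11A and lowest in parental cells. The dimmer probe sets 1440770_at, with signals of 1312 in Q84E, 779 in wild-type ATP11A and 944 in parental cells, and 1443837_x_at, with 1078, 717 and 881, were also highest with Q84E but had wild-type ATP11A below parental cells. All 5 probe sets were therefore higher in Q84E than in wild-type ATP11A cells, at log2 ratios from 0.34 to 0.75 with a mean of 0.50 (SD 0.17 over probe sets of the same RNA), a mean of 1.41-fold. Each of these ratios was between 3.14 and 4.02 times the probe set error. For Q84E over parental cells all 5 were again above 0, from 0.29 to 0.80 with a mean of 0.58 (SD 0.21 over probe sets), and 4 of the 5 exceeded 2 probe set errors. For wild-type ATP11A over parental cells the probe sets split, with 3 at 0.22 to 0.40 and 2 at -0.28 and -0.30, so the order of those lines depended on the probe set.

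Ratios of this size were uncommon among genes of that signal class. Of 2791 genes above the 90th percentile, 64 (2.29%) had a ratio of Q84E over wild-type ATP11A at least as high as the brightest Bcl2 probe set. For Q84E over parental 30 (1.07%) did, and for wild-type ATP11A over parental 148 (5.30%). Such shares, counted in the direction of each ratio, ran from 0.547% to 61.0% over all members and comparisons. They are descriptions and not tests, as the members were chosen with earlier results known. The sign of the Bcl2 ratios with Q84E on top held with other scalings of the arrays. With quantile normalization, which gives every array the same distribution of signals, the 5 probe sets ranged from 0.37 to 0.74 for Q84E over wild-type ATP11A and from 0.27 to 0.83 for Q84E over parental. With a common median, which alone moved the median of all genes by more than 0.1, to -0.091 for Q84E over wild-type ATP11A and to -0.075 for Q84E over parental, they ranged from 0.21 to 0.61 and from 0.15 to 0.65.

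The other survival genes did not share that pattern. Mcl1 encodes a short-lived survival protein of lymphocytes, and its brightest probe set had a signal of 4757 in Q84E, 5517 in wild-type ATP11A and 4698 in parental cells. Its 6 probe sets lay between -0.27 and 0.021 in log2 ratio for Q84E over parental, with a mean of -0.051 (SD 0.11 over probe sets), and none exceeded 2 probe set errors there. For Q84E over wild-type ATP11A they lay between -0.23 and 0.048, with 5 of 6 below 0 and 2 beyond 2 probe set errors. Mcl1 thus did not differ beyond 2 probe set errors between Q84E and parental cells, and the wild-type ATP11A array was the high one for its brightest probe set. With a common median all 6 were below 0 for Q84E over either other line.

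Bcl2l1, which encodes the survival protein BCL-XL, was measured clear of the floor by 1 of 4 probe sets. That probe set, 1420888_at, had signals of 334 in Q84E, 331 in wild-type ATP11A and 336 in parental cells, and its log2 ratios were 0.012, -0.024 and -0.012 for the 3 comparisons, far inside a probe set error of 0.33 to 0.36. Probe set 1420887_a_at had 83.0, 51.7 and 54.97 on the same arrays, close to the floor, with a log2 ratio of 0.68 for Q84E over wild-type ATP11A that was 2.06 times its error. The remaining 2 lay under the floor on every array. No difference of Bcl2l1 between the lines was detectable by its brightest probe set, while a dim one was higher with Q84E.

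**Figure D2:**
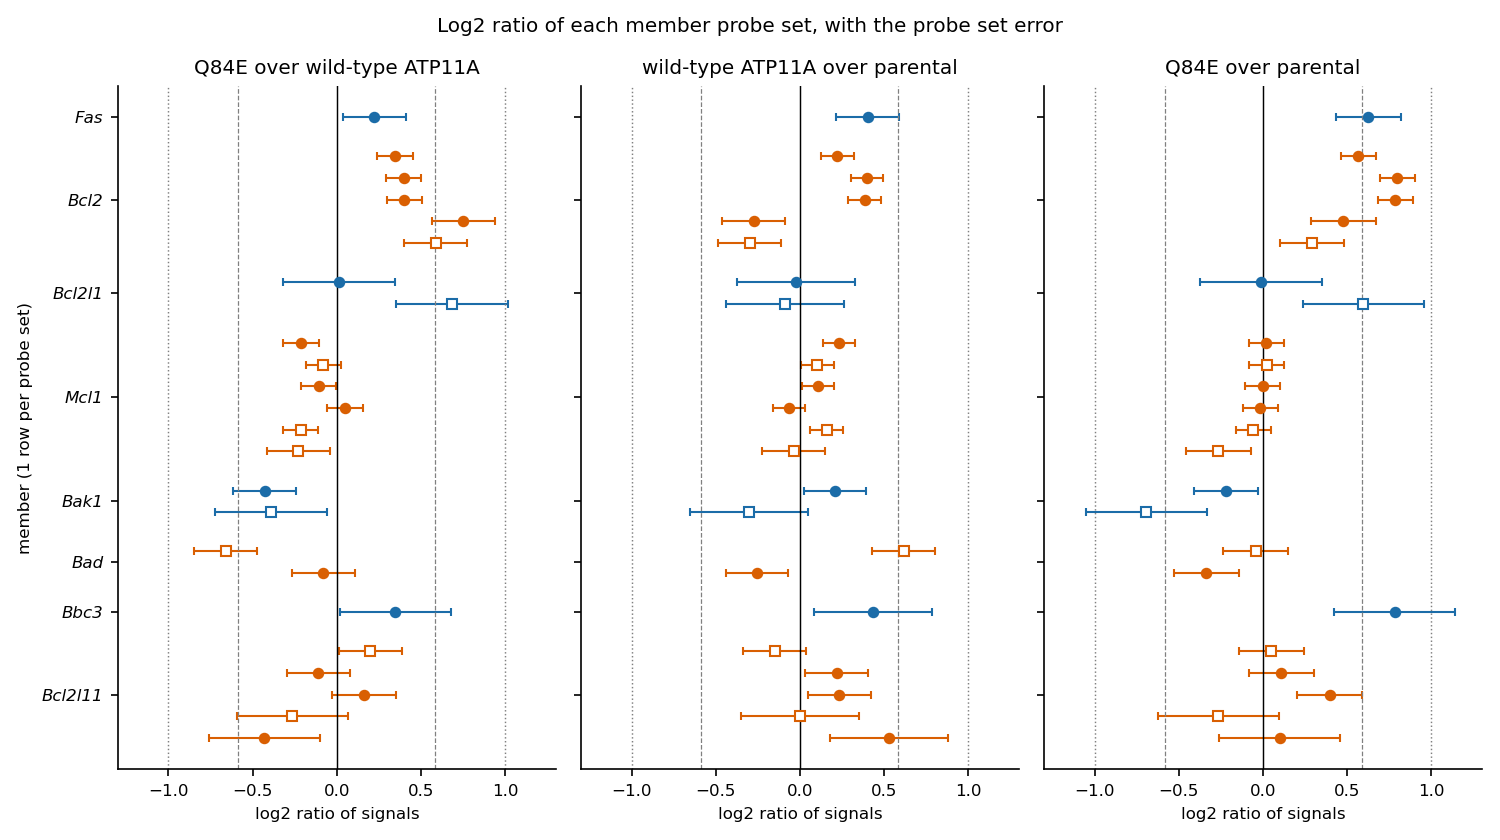
Log2 ratio of signals for each member probe set above the floor on all arrays (24 rows), in 3 panels by comparison. Bars are 1 probe set error on each side, open squares are less specific probe sets, and dashed and dotted lines mark 1.5-fold and 2-fold. The 5 Bcl2 rows are right of 0 in both panels with Q84E on top of the ratio, and both Bak1 rows are left of 0 there.

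Of the genes for the pore formers BAX and BAK, Bak1 was the one measured. Its probe set 1418991_at had a signal of 425 in Q84E, 573 in wild-type ATP11A and 496 in parental cells, and the less specific 1425716_s_at had 168, 221 and 272. Both were lowest on the Q84E array, while the order of the other arrays differed between the probe sets. The log2 ratio of Q84E over wild-type ATP11A was -0.43 and -0.39 for them, 1.35-fold and 1.31-fold lower, which was -2.29 and -1.18 times the probe set error. For Q84E over parental it was -0.22 and -0.69, both within 2 probe set errors. Both stayed below 0 for Q84E over either other line with quantile normalization and with a common median. Of 3836 genes between the 75th and 90th percentile, 80 (2.09%) had a ratio of Q84E over wild-type ATP11A as low as that of the brighter Bak1 probe set.

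Bbc3, which encodes PUMA, a BH3-only protein induced by p53 and by FOXO3, had 1 dim probe set. Its signal was 179.6 in Q84E, 141 in wild-type ATP11A and 104 in parental cells. The 3 arrays thus stood in the same order as for Fas. The log2 ratio of Q84E over parental was 0.78, 1.72-fold and 2.17 times the probe set error, and those of Q84E over wild-type ATP11A and of wild-type ATP11A over parental, 0.35 and 0.43, were 1.05 and 1.24 times the error. Neighbouring arrays in that order therefore did not differ beyond 2 errors, and of 3543 genes as dim as Bbc3, 275 (7.76%) had a ratio of Q84E over parental at least as high. The nearest genes by the 2 ratios to parental were Cdc25c, Tfdp2 and Tsc22d3, at distances of 0.040, 0.042 and 0.051, with 15 of 6371 genes within 0.1.

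Bcl2l11, which encodes BIM, stood in the order of Fas and Bbc3 by 1 of its 5 probe sets. Its brightest probe set, 1456005_a_at, had a signal of 1056 in Q84E, 921 in wild-type ATP11A and 1021 in parental cells. The next, 1435448_at, had 867, 936 and 805, and so placed the wild-type ATP11A array highest where the first placed it lowest. The 5 probe sets had log2 ratios from -0.43 to 0.20 for Q84E over wild-type ATP11A, with 2 above 0 and 3 below. For Q84E over parental they ranged from -0.27 to 0.40, with a mean of 0.077 (SD 0.23 over probe sets) and 4 of 5 above 0, which became 1 of 5 with a common median. Only 1435449_at, with signals of 524 in Q84E, 469 in wild-type ATP11A and 398 in parental cells, exceeded 2 probe set errors in any comparison, at 2.06 for Q84E over parental, and it is the one with the order seen for Fas and Bbc3.

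Bad encodes a BH3-only protein that is held in the cytosol by phosphorylation when survival signals are present, and its probe sets disagreed. The less specific 1416582_a_at had a signal of 608 in Q84E, 961 in wild-type ATP11A and 627 in parental cells, which put the wild-type ATP11A array 1.53-fold above parental and Q84E 1.58-fold below wild-type ATP11A. These log2 ratios were 3.29 and -3.52 times the probe set error, and 21 of 3836 genes of that signal class (0.547%) had a ratio of Q84E over wild-type ATP11A at least as low. Probe set 1416583_at, a specific one, had 558, 591 and 705, with log2 ratios of -0.082 for Q84E over wild-type ATP11A and -0.26 for wild-type ATP11A over parental. The direction of Bad between wild-type ATP11A and parental cells thus depended on the probe set. Both probe sets were below 0 for Q84E over either other line, within 2 probe set errors for Q84E over parental. The nearest genes to 1416582_a_at by both ratios to parental, Kbtbd8, Tsc22d1 and Fance, were at distances of 0.083, 0.12 and 0.15, with 1 of 6370 genes within 0.1. These distances too lie within the probe set error of 0.19 for either ratio.

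**Figure D3:**
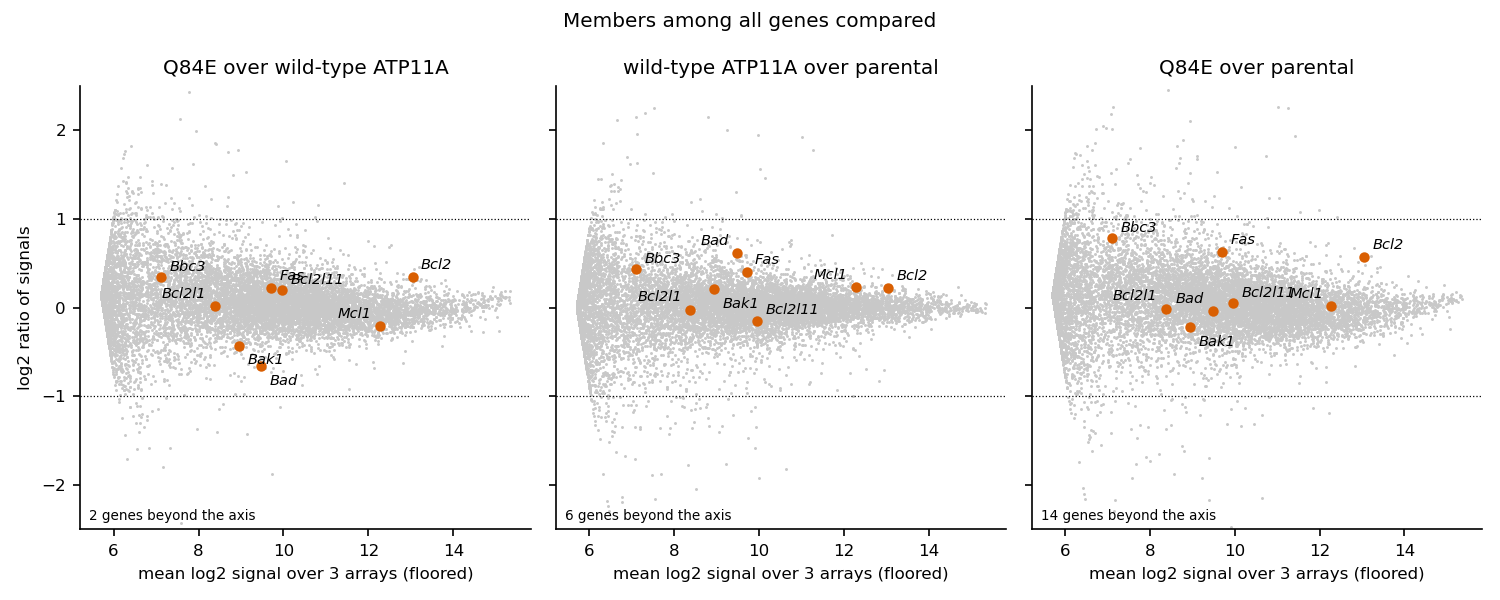
Log2 ratio of signals against the mean log2 signal over the 3 arrays for all 11596 genes compared (grey, brightest probe set) with the 8 members in orange, in 3 panels by comparison, with dotted lines at 2-fold and the number of genes beyond the axis printed in each panel. Bcl2 lies above most genes of its brightness in both panels with Q84E on top of the ratio, and no member passes 2-fold.

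Among the other genes of the pathway, 5 lists, chosen with earlier results of these data known, were followed by the brightest probe set of each gene. Over all genes compared, 7.75%, 7.07% and 10.3% passed 1.5-fold in the 3 comparisons, and 1.35%, 1.45% and 2.42% passed 2-fold. These shares stand beside the counts of every list below, and in lists this short a count of 0 lies near them. In the death receptor pathway, 14 of 15 genes had a named probe set, 12 were compared, and none differed 1.5-fold in any comparison. Over the 11 above the floor on all arrays, the median log2 ratio was 0.021 for Q84E over wild-type ATP11A and -0.014 for Q84E over parental, with 6 and 5 genes above 0. Fasl, the ligand of Fas, was under the floor on every array by its brightest probe set, and its other one passed the floor on the Q84E array alone, with a signal of 59.9. Casp8, the initiator caspase recruited by Fas, had a signal of 3038 in Q84E, 2912 in wild-type ATP11A and 2774 in parental cells. Cflar, the decoy that blocks caspase 8, had 367, 380 and 292 on those arrays, and Tradd, an adaptor of the TNF receptor, had 654, 644 and 497. Both were lowest in parental cells by these probe sets, and the 2 other probe sets of Tradd put parental cells lower and higher than Q84E. Bid, which links caspase 8 to the mitochondrion, had 2715, 3044 and 3319 and was lowest with Q84E in all 3 of its probe sets.

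Among other BCL2 family genes, Bmf, Hrk and Bnip3 were the ones past 1.5-fold in any comparison. Of 18 listed, 13 were named and 9 compared, of which Bcl2l2 and Bok were under the floor on at least 1 array of every comparison. Over the other 7 the median log2 ratio was 0.27 for Q84E over wild-type ATP11A and 0.17 for Q84E over parental, with 4 genes above 0 and 3 below in either comparison. Bmf, a BH3-only gene whose protein binds the dynein light chain, had a signal of 139 in Q84E, 97.5 in wild-type ATP11A and 59.6 in parental cells by a less specific probe set near the floor, 2.33-fold higher with Q84E than in parental cells, and its other 2 probe sets were under the floor on all arrays. Bnip3, a hypoxia-induced gene for a mitochondrial protein, had 1934, 1115 and 987. It was 0.79 higher on the log2 scale in Q84E than in wild-type ATP11A cells. Hrk, a further BH3-only gene, had 552, 334 and 323, with log2 ratios of Q84E over wild-type ATP11A of 0.72 and 0.39 by its 2 probe sets. Bcl2l13 had 824, 970 and 1114, but its other probe set had log2 ratios of 0.0061 and 0.12 for Q84E over wild-type ATP11A and over parental. At 1.5-fold, 2 of 9 were higher for Q84E over wild-type ATP11A, 1 for wild-type ATP11A over parental and 3 for Q84E over parental, and none was lower. Over all genes compared, the shares higher by that limit were 5.78%, 3.51% and 7.36%, and the shares lower were 1.97%, 3.56% and 2.94%. Pmaip1, which encodes the p53 target NOXA, was under the floor on all arrays.

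Among the apoptosome and caspase genes, 12 of 14 were named and compared, and none differed 1.5-fold by its brightest probe set. The median log2 ratio was -0.12 for Q84E over wild-type ATP11A and -0.084 for Q84E over parental, with 8 and 9 of the 12 below 0. Over all genes above the floor on both arrays, 4389 of 9917 and 4181 of 9841 were below 0 in these comparisons. Another probe set of Casp9, the initiator caspase of the apoptosome, went against its brightest one, with a signal under the floor in Q84E against 160 in wild-type ATP11A and 116 in parental cells. The brightest had 246, 186 and 173 on those arrays. Casp2, a caspase activated by p53-linked complexes, had a signal of 4525 in Q84E, 3473 in wild-type ATP11A and 3219 in parental cells. Dffb, the nuclease that cuts chromatin in apoptosis, had 405, 540 and 498, and Dffa, its inhibitor, had 663, 714 and 838. Both were lowest on the Q84E array by their brightest probe sets, and the other probe set of Dffa, near the floor, had the opposite sign for Q84E. Of the inhibitor of apoptosis genes 9 of 10 were named and 6 compared, and none differed 1.5-fold. For Q84E over parental, 5 were above the floor on both arrays, all with log2 ratios above 0 and a median of 0.080. Of all 9841 genes above the floor on both of those arrays, 5660 were above 0, with a median of 0.048. Xiap, the direct inhibitor of caspases, had 2598 in Q84E, 2599 in wild-type ATP11A and 2070 in parental cells. Its other measured probe sets differed in sign for wild-type ATP11A over parental. Birc3 had 506, 424 and 451, and Birc6 had 1494, 1586 and 1436 with other probe sets of either sign.

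Of the regulators, 19 of 21 were named and 18 compared, and Foxo3 was the one past 2-fold, or past 1.5-fold, in any comparison. FOXO3 is a transcription factor that activates Bcl2l11 and Bbc3 when growth factor signals are withdrawn. Its less specific probe set 1434831_a_at had a signal of 818 in Q84E, 346 in wild-type ATP11A and 255 in parental cells. That was 2.37-fold and 3.21-fold higher with Q84E. Probe set 1434832_at had 261, 236 and 241, 1.11-fold and 1.09-fold for the same ratios, and another lay under the floor on all arrays, so the value rested on 1 of 2 measured probe sets. Mdm2, the ubiquitin ligase of p53, had 1203 in Q84E, 820 in wild-type ATP11A and 999 in parental cells, with its other measured probe set at a log2 ratio of 0.037 for Q84E over wild-type ATP11A. Bag1, a chaperone partner of BCL2, had 3921, 4854 and 4345 on those arrays.

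**Figure D4:**
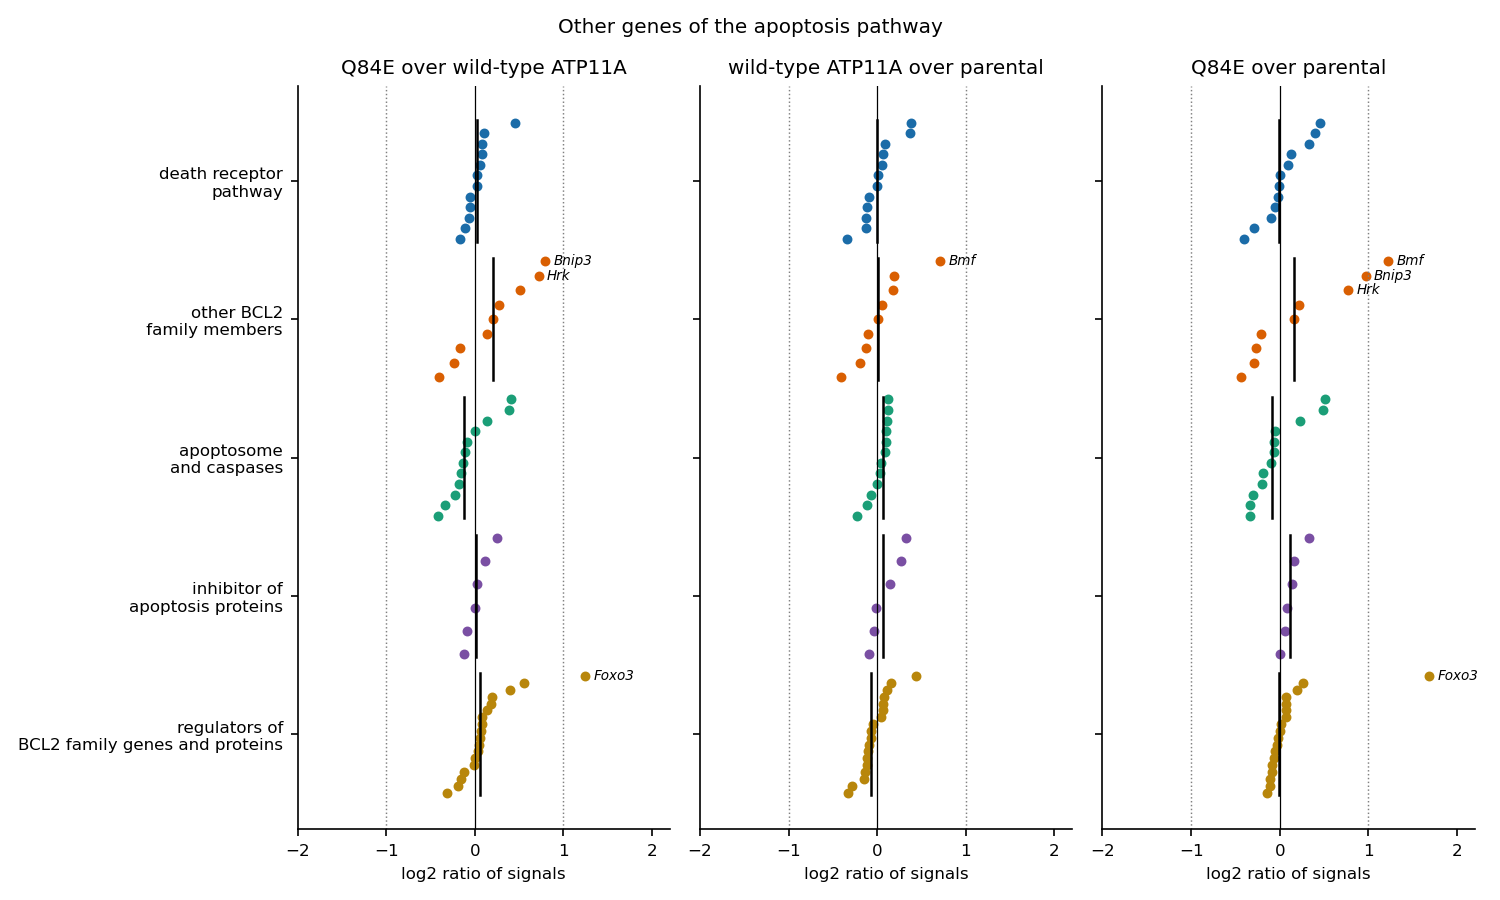
Log2 ratio of the brightest probe set of each compared gene in 5 lists of the apoptosis pathway, in 3 panels by comparison, with 1 point per gene, the median of all compared genes of the list, those at the floor included, as a black bar, dotted lines at 2-fold and gene names beyond 1.5-fold. Foxo3 stands apart in both panels with Q84E on top of the ratio, and Bmf passes 2-fold for Q84E over parental. Both rest on less specific probe sets.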

How the data were processed

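The authors deposited linear array intensity, the signal of 45101 probe sets, from MAS5 per the submitters' processing notes (version not given in the sources used here). Those values had the same trimmed mean, 500.0 after leaving out 2% at each end, on all 3 arrays, and that scaling was kept. A single factor per array can spread a shift of many genes over the others. Names came from the platform's annotation, which gave 34958 probe sets exactly 1 symbol, 932 several and 9211 none.

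From these signals, log2 levels were floored at the 50th percentile of each array. A gene was represented by its brightest probe set (highest mean log2 signal) and compared if it reached the floor on at least 1 array, which 11596 genes did. Less specific probe sets are those with identifiers ending in _s_at, _x_at or _a_at. The name follows the ending alone, and an _a_at ending need not mean that RNA of other genes is bound. Python 3.11.15, numpy 2.4.6 and pandas 2.3.3 were used, and the steps were tested on simulated data. Members and lists were chosen with earlier results of these data known. The named genes were all members, and per list every gene past 2-fold and the 3 with the largest ratio among genes that reached the 75th percentile on an array. Casp8, Fasl and Pmaip1 fall outside the rule and were chosen for their role after values were seen. Casp9 is outside the rule too and was also added by hand. For each member past 1.5-fold, the 3 nearest genes were sought by Euclidean distance over both ratios to parental among genes at or above the 75th percentile on all arrays. The alternatives were 2 other scalings, 2 other choices of probe sets and 3 other floors. Promoter windows came from RefSeq tables of build GRCm38.p6.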

Additional observations from a re-analysis of the deposited data

How the results depend on the processing

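No paired analysis was possible because each group had 1 array, and for the same reason no array could be left out. No member passed 2-fold under any of the 7 alternatives in any comparison. With a common median of the arrays, the members' median log2 ratio was -0.032 for Q84E over wild-type ATP11A and -0.11 for Q84E over parental, where 1 member passed 1.5-fold. With quantile normalization 3 did in that comparison, with Bcl2 at 0.59. With the mean of all probe sets of a gene, 0 members passed 1.5-fold for Q84E over wild-type ATP11A and 0 for wild-type ATP11A over parental, and the median was 0.13 for wild-type ATP11A over parental and 0.18 for Q84E over parental. Without less specific probe sets 0 members passed 1.5-fold in either of the first 2 comparisons, the median for Q84E over wild-type ATP11A was -0.035, and Bad for wild-type ATP11A over parental turned to -0.26. With a floor at the 75th percentile 6 members were left, with a median of -0.0082 for Q84E over wild-type ATP11A and 1 member past 1.5-fold for Q84E over parental. The cause of these shifts was not tested. Bcl2 kept its sign under all 7, at 0.21 to 0.50 for Q84E over wild-type ATP11A and 0.42 to 0.59 for Q84E over parental. The floors at the 25th and 75th percentile and the removal of less specific probe sets could not change its brightest probe set. Of all 162 member values under alternatives, 143 moved by less than the probe set error. That count includes values that could not move. A probe set above both floors keeps its ratio, and so does a member with a single probe set under the mean. Over all genes, 156, 168 and 281 passed 2-fold in the 3 comparisons, against 1777, 1712 and 1974 with a floor at the 25th percentile, 1394, 1328 and 1532 with no floor, and 18, 29 and 61 with a floor at the 75th. The split of higher against lower was 119 to 37 for Q84E over wild-type ATP11A and 189 to 92 for Q84E over parental. It was 68 to 64 and 119 to 118 with quantile normalization, and 65 to 66 and 111 to 123 with a common median.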
